A study of Mus musculus with 10 samples.

Results

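The 10 Frizzled genes of the mouse, Fzd1 to Fzd10, were described in bulk RNA-seq counts of 10 subcutaneous tumors. Members were the rows of the count table whose Ensembl gene identifier maps to a Frizzled symbol, which gave 10 of the 37417 genes in the table. The family was chosen by the Fzd1 counts of these tumors, since the Fzd1 levels of the 2 groups did not overlap, so the Fzd1 difference between the groups is given as a description, with no test. A filter on low counts kept 9 of the 10 members and 15299 genes in all, and the member it removed was Fzd10.

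Frizzled proteins are receptors that span the cell membrane several times. They bind secreted Wnt proteins through a cysteine-rich domain outside the cell, and, with the coreceptors LRP5 and LRP6, pass a signal through Dishevelled that stabilises β-catenin. Some members also act without β-catenin, in planar cell polarity and calcium signalling, and the ubiquitin ligases RNF43 and ZNRF3 remove Frizzled proteins from the cell surface. By sequence the family falls into the groups Fzd1, Fzd2 and Fzd7, then Fzd3 and Fzd6, then Fzd5 and Fzd8, and finally Fzd4, Fzd9 and Fzd10, and the results are ordered by these groups.

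Panc02, a pancreatic cancer line of the mouse, was injected into the flank of C57BL/6J mice, and the tumors were collected at day 16. The labels give the mice as wild type and 12 weeks old, without saying whether that age is at injection or at collection. In 5 tumors (sgNT) the cancer cells carried a nontargeting guide RNA, and in 5 (sgCda) one directed at Cda, which encodes cytidine deaminase, the pyrimidine salvage enzyme that turns cytidine into uridine. Cancer cells of both groups also carried a Cas9 nuclease that doxycycline switches on, were exposed to doxycycline in culture, and were selected for their vectors. Polyadenylated RNA of the whole tumor was sequenced, so a level mixes cancer cells with host cells, and fewer cells of a type cannot be told apart from less RNA per cell.

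The guides are shown because they define the groups. For Panc02 cells the study tested 2 guides against Cda and calls guide 2 sgCda, the name in these tumors' titles. The numbers in the titles are those of replicates, not of guides. The study's list of oligonucleotides held 1 nontargeting guide and 2 guides against Cda. Both matched the coding sequence in exon 2 of Cda (GRCm38), guide 1 against the transcript's strand at chr4:138351247-138351266, followed by TGG, and guide 2 along it at chr4:138351219-138351238, followed by GGG.
Nontargeting guide: gaacagtcgcgtttgcgact
Cda guide 1: cgctcggcacacacacctag
Cda guide 2: tccagaaggccatctccgaa
None of the 3 came close to a Frizzled transcript. Next to an NGG, the fewest mismatches over the family ran from 7 to 9 of 20 bases for each Cda guide and from 8 to 10 for the nontargeting guide.

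Fzd1, Fzd2 and Fzd7 are close paralogs, and the 50-base reads could in principle be shared between them. The longest runs of identical bases in their coding sequences are shown for that reason, and all lie in the single exon of each gene.
Fzd1 and Fzd2: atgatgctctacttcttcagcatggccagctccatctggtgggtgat
Fzd1 and Fzd7: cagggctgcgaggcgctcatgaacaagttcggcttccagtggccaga
Fzd2 and Fzd7: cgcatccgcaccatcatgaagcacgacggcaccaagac
The run of 47 bases shared by Fzd1 and Fzd2 lies at chr5:4756331-4756377 on the minus strand and chr11:102605740-102605786 on the plus strand (GRCm38). The other run of 47 bases, shared by Fzd1 and Fzd7, lies at chr5:4756964-4757010 on the minus strand and chr1:59483344-59483390 on the plus strand. The 38 bases shared by Fzd2 and Fzd7 lie at chr11:102606064-102606101 and chr1:59484298-59484335, both on the plus strand.

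Over all 45 pairs of members the longest shared run had a median of 16 bases and a range of 9 to 47, and in 0 pairs did it reach the read length. Of the 50-base windows in the longest annotated transcript of each member, 0 occurred in another Frizzled gene. For Fzd5, 16.6% of windows lay in the antisense gene Gm38058, and for Fzd6, 2.41% lay in the antisense gene Gm26704. Neither antisense gene has a row in the count table, and the strand setting of the counting was not stated, so reads from these genes and their antisense partners may not be told apart. Fzd1 and Fzd7, the members of highest level, shared 0 windows with any other annotated transcript.

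Assigned counts ran from 28051907 to 39484964 per tumor, and a level of 3 counts, used here as the floor, equals 0.0760 to 0.107 CPM, where CPM are counts relative to the scaled size of a library. Cda itself ran from 10.1 to 14.7 CPM over the sgNT tumors and from 7.47 to 12.5 CPM over the sgCda tumors, so the ranges overlapped. Its log2 difference was -0.30 ± 0.17 (SE; edgeR, unadjusted p = 0.0963). The study checked the targeting in the cancer cells by RT-qPCR and western blot. In tumors of this line it also found Cda RNA in endothelial cells and fibroblasts, which whole-tumor counts include. Markers of epithelial and of host cells were both present: the keratin gene Krt8 averaged 464 CPM, the fibroblast gene Dcn 1950 CPM and the macrophage gene C1qb 1050 CPM. The epithelial markers were uneven, with Krt18 at a mean of 230 CPM in the sgNT group. Epcam, Krt7, Cldn4 and Cldn7 each averaged at most 1.30 CPM in the sgNT and 1.77 CPM in the sgCda group. Of 6 acinar markers, 4 (Cpa1, Ctrb1, Pnlip and Cel) had at most 3 counts in any tumor. In 2 sgCda tumors the libraries stood apart. In sgCda replicate 3, 8 skeletal muscle markers summed to 2232 CPM, against at most 548 CPM in the other tumors, and 7 T cell markers summed to 594 CPM, against at most 398 CPM. In sgCda replicate 4, 18.4% of uniquely aligned reads fell in no annotated gene and 5.82% of assigned counts fell in mitochondrial genes, the highest shares of the 10 tumors.

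Fzd1 and Fzd7 were the Frizzled genes of highest level. Per kilobase of merged exons, Fzd1 averaged 17.8 ± 2.21 CPM per kb and Fzd7 16.0 ± 2.59 CPM per kb (SD, n = 10 tumors), and 21.01% and 23.2% of the 14709 tested genes with a length stood above them. Fzd2 followed with 12.3 ± 1.96 and Fzd6 with 7.46 ± 1.14 CPM per kb. The middle of the order was held by Fzd5 (3.09 ± 0.358 CPM per kb), Fzd4 (2.38 ± 0.674), Fzd9 (2.09 ± 0.620) and Fzd8 (1.09 ± 0.216). Fzd3 came next at 0.204 ± 0.0300 CPM per kb, and Fzd10 was close to absent, with 0 to 2 counts per tumor and 6 counts in all.

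Neighbours in this order were not all separated. The ranges over the 10 tumors overlapped between Fzd1 and Fzd7, between Fzd7 and Fzd2, and along the chain from Fzd5 through Fzd4 and Fzd9 to Fzd8. They did not overlap between Fzd2 and Fzd6, between Fzd6 and Fzd5, between Fzd8 and Fzd3, or between Fzd3 and Fzd10. Within single tumors, Fzd1 exceeded Fzd7 in 8 of 10, the exceptions being sgCda replicates 1 and 5, and Fzd7 exceeded Fzd2 in 9 of 10. Fzd4 exceeded Fzd9 in 7 of 10 tumors.

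**Figure D1:**
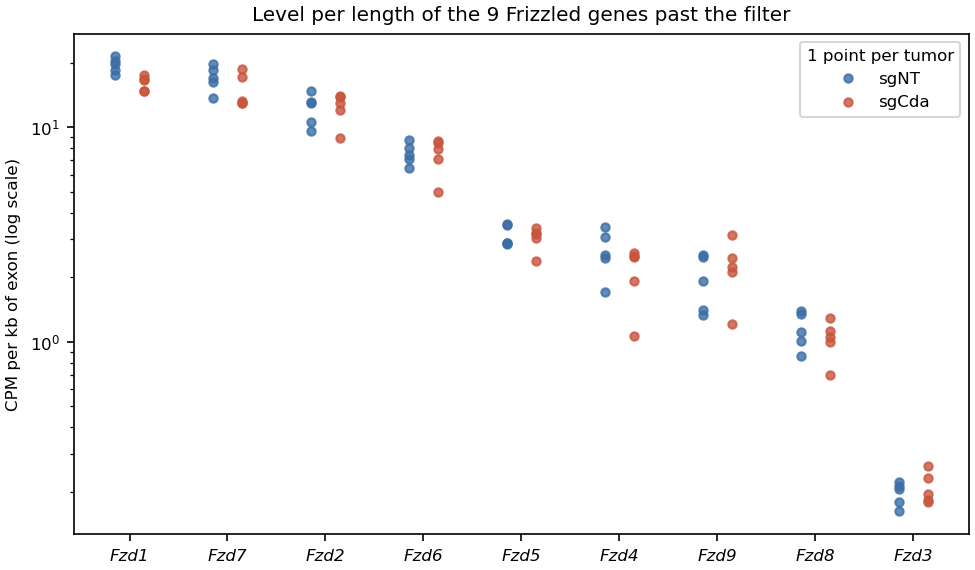
Level per length of the 9 Frizzled genes past the filter, in CPM per kb of merged exons on a log axis, with 1 point per tumor and the sgNT and sgCda groups side by side. Fzd1, Fzd7 and Fzd2 overlap at the top, Fzd5 to Fzd8 form a chain of overlapping ranges, and Fzd3 stands below all of them at 0.204 CPM per kb.

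The summed level of the family was 65.3 ± 1.75 CPM per kb for the sgNT group and 59.5 ± 7.96 for the sgCda group (SD over 5 tumors each). These sums hold Fzd1, which was chosen for its lower sgCda values. Without Fzd1 they were 45.8 ± 2.71 for sgNT and 43.4 ± 7.23 for sgCda. The lowest sum of all tumors, 47.2 CPM per kb with Fzd1, was that of sgCda replicate 3. Fzd1 alone made up 24.7% to 32.1% of the sum, Fzd7 20.6% to 30.9% and Fzd2 15.1% to 22.3%.

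Fzd1 encodes a receptor of the β-catenin branch, in a single exon at chr5:4753839-4758035 on the minus strand (GRCm38). In sgNT replicates 1 to 5 it had 77.4, 73.7, 85.1, 82.8 and 89.5 CPM. In sgCda replicates 1 to 5 it had 70.1, 73.3, 61.9, 62.2 and 69.4 CPM. Each sgCda tumor therefore stood below each sgNT tumor, as the choice of the family fixed, and the groups came closest in their replicates 2.

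The gap between those replicates was 0.465 CPM, with 95% exact Poisson intervals of 70.8 to 76.8 CPM for sgNT replicate 2 and 70.5 to 76.1 CPM for sgCda replicate 2. These intervals cover counting error only and overlap nearly whole, so the separation of the groups at its narrowest point was not resolved at this depth. The mean was 81.7 ± 6.25 CPM for sgNT and 67.4 ± 5.07 CPM for sgCda (SD over 5 tumors each). On the log2 scale the edgeR estimate for sgCda against sgNT was -0.28, or 17.5% lower. Since Fzd1 was picked for this contrast, neither a p-value nor an interval of the difference is given for it.

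Fzd1 was the single member of the 9 tested whose groups did not overlap. Of all 15299 genes tested, 0.601% had groups that did not overlap, 0.294% with sgCda lower and 0.307% with sgCda higher. Under library totals in place of trimmed mean of M values (TMM) scaling the split was 26 genes lower and 58 higher, against 45 and 47 here, and Fzd1 stayed among those with sgCda lower. The gap between the nearest Fzd1 tumors was then 1.55 CPM, and it was 1.22 CPM with DESeq2's size factors. Within groups Fzd1 had an SD of 0.11 on the log2 scale, to which counting error contributed 0.029. The median SD of the 2463 genes of like level was 0.14, and 67.7% of them had a larger SD than Fzd1. A gene chosen for groups that do not overlap tends to have a small spread, so this is a description only.

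For Fzd1 the 250 bases before the transcription start given by RefSeq (GRCm38.p6) are shown, beside those of Fzd7, the member of nearest level. RefSeq gave this sequence for 6 of the 10 members, Fzd1, Fzd4, Fzd5, Fzd7, Fzd9 and Fzd10. The Fzd1 stretch lies at chr5:4758217-4758466 on the minus strand and that of Fzd7 at chr1:59481897-59482146 on the plus strand. The gene models used for lengths start elsewhere, at chr5:4758035 for Fzd1 and chr1:59482424 for Fzd7. Capitals mark a match to a TCF/LEF word, the short motif of the transcription factors that β-catenin binds, searched on both strands as CTTTGAA, then as CTTTGAT, then as CTTTGTA and last as CTTTGTT, of which no pair can match at the same place.
Fzd1 upstream: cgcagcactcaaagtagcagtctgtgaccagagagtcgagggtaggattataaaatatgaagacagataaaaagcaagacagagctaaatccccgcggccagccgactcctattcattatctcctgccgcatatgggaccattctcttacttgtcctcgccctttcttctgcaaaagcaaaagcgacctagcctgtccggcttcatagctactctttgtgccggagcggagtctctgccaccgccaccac
Fzd7 upstream: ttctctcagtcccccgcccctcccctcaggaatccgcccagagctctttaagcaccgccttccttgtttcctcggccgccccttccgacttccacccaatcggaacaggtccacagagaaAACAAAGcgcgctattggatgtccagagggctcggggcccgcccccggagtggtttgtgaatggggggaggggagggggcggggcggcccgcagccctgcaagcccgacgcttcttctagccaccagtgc
The Fzd7 stretch held 1 match and the other 5 members held 0, where 14.8% of 32851 promoter stretches of this length held at least 1. G and C made up 51.2% of the Fzd1 stretch, against 65.2% for Fzd7, 72.8% for Fzd4 and 76.4% for each of Fzd5, Fzd9 and Fzd10. The median over all promoter stretches was 52.4%.

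Fzd7, a receptor known for its role in stem and progenitor cells of epithelia, also had a lower mean in sgCda tumors, but its groups overlapped. In sgNT replicates 1 to 5 it had 73.9, 76.5, 84.0, 89.0 and 62.0 CPM, and in sgCda replicates 1 to 5 it had 77.9, 60.2, 58.8, 58.8 and 85.0 CPM. In 3 sgCda tumors the level stood below every sgNT tumor, and in the other 2 it stood inside the sgNT range. The log2 difference was -0.18 ± 0.13 (SE), with a 95% confidence interval from -0.47 to 0.11 and an unadjusted edgeR p of 0.201. Without sgCda replicate 5 it was -0.27, which is over 1.5 times the estimate from all tumors.

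Fzd2, a receptor of Wnt5a among others, showed no shift between the groups that exceeded the spread between tumors. It had 48.1, 47.4, 34.97, 38.9 and 54.2 CPM in sgNT replicates 1 to 5, and 51.1, 44.1, 32.6, 47.4 and 50.4 CPM in sgCda replicates 1 to 5. High and low tumors were found in both groups, and the medians were both 47.4 CPM. The log2 difference was 0.013 ± 0.14 (SE), with a 95% confidence interval from -0.30 to 0.33 (edgeR, unadjusted p = 0.930).

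Relative to each other, these 3 paralogs varied between tumors. The level of Fzd1 over that of Fzd2, per length, was 1.64 ± 0.338 for sgNT and 1.33 ± 0.218 for sgCda (SD over 5 tumors each), with ranges that overlapped. The level of Fzd1 over Fzd7 was 1.17 ± 0.225 for sgNT and 1.09 ± 0.168 for sgCda. The chosen Fzd1 values enter both ratios, so neither was tested.

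**Figure D2:**
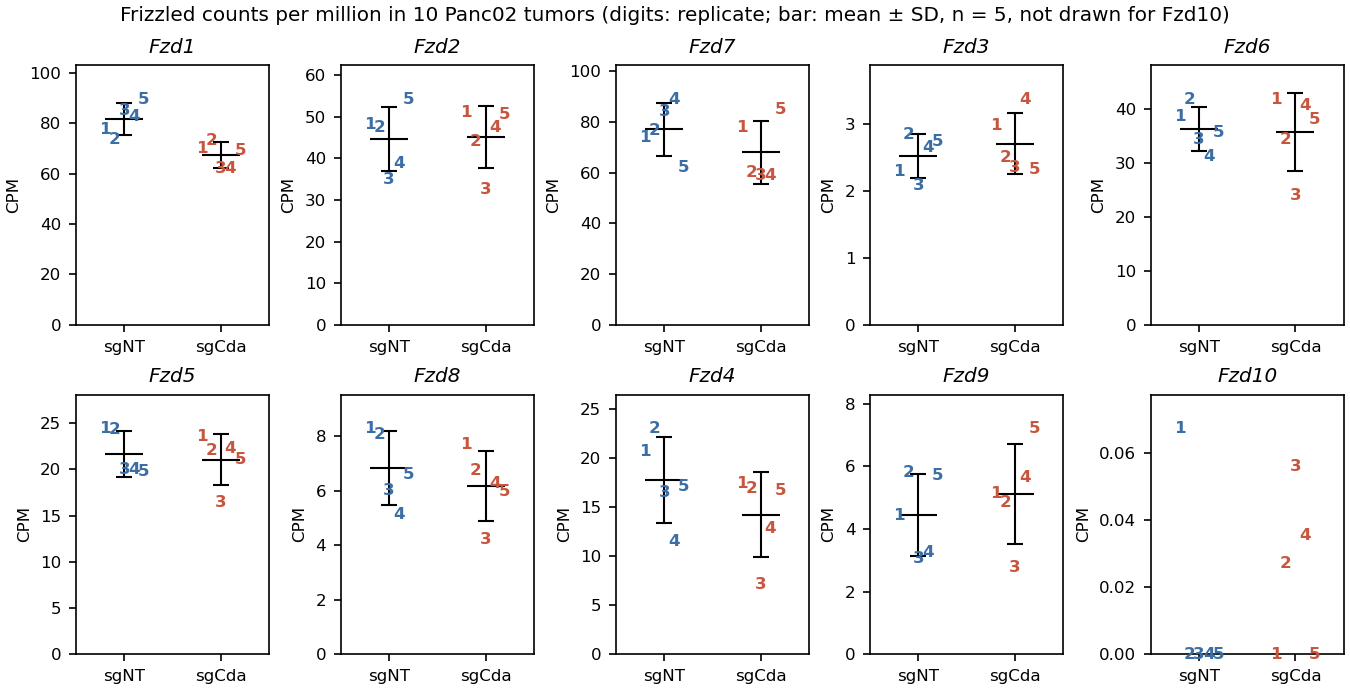
CPM of each Frizzled gene in the 10 tumors, with a panel per gene and axes that start at 0. Digits are replicate numbers and bars are the mean ± SD (n = 5 per group, not drawn for Fzd10). Only in the Fzd1 panel do the groups separate, at 73.7 against 73.3 CPM. In that panel and in 6 of the others sgCda replicate 3 is the lowest tumor.

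Fzd3 and Fzd6 act mainly in planar cell polarity, the alignment of cells within a sheet, Fzd3 in axon growth and Fzd6 in hair patterning. Fzd6 had 38.6, 41.8, 34.2, 31.1 and 35.6 CPM in sgNT replicates 1 to 5, and 41.6, 34.2, 24.0, 40.6 and 38.0 CPM in sgCda replicates 1 to 5. Apart from the low value of sgCda replicate 3, the sgCda tumors lay within the sgNT range. The log2 difference was -0.024 ± 0.14 (SE; edgeR, unadjusted p = 0.870), and without sgCda replicate 3 it was 0.090.
Fzd3 was detected at 67 to 109 counts per tumor, that is 2.08 to 2.84 CPM in the sgNT and 2.31 to 3.37 CPM in the sgCda group. Its log2 difference was 0.099 ± 0.17 (SE; edgeR, unadjusted p = 0.566). It was 0.0094 without sgCda replicate 4, the tumor with the highest Fzd3 level. At these counts, counting error alone gave an SD of 0.16 on the log2 scale, against a spread of 0.21 between tumors of a group.

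Fzd5 and Fzd8 form a pair in the β-catenin branch, and Fzd5 is known from the intestinal epithelium and from pancreatic cancer cells that have lost RNF43. Fzd5 had 24.4, 24.3, 19.96, 19.95 and 19.75 CPM in sgNT replicates 1 to 5, and 23.5, 22.0, 16.4, 22.2 and 21.1 CPM in sgCda replicates 1 to 5. All sgCda tumors but replicate 3 were inside the sgNT range. The log2 difference was -0.042 ± 0.11 (SE), with a 95% confidence interval from -0.28 to 0.20 (edgeR, unadjusted p = 0.7101), and it was 0.036 without sgCda replicate 3.
Fzd8 ran from 5.12 to 8.29 CPM in the sgNT and from 4.197 to 7.70 CPM in the sgCda group. Its log2 difference was -0.14 ± 0.19 (SE; edgeR, unadjusted p = 0.457), and -0.032 without sgCda replicate 3.

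Fzd4 is the receptor of norrin in the vessels of the retina, and Fzd9 is known from nerve and bone. Fzd4 had 20.7, 23.03, 16.5, 11.5 and 17.1 CPM in sgNT replicates 1 to 5, and 17.4, 16.9, 7.13, 12.9 and 16.7 CPM in sgCda replicates 1 to 5. The lowest sgCda tumor, replicate 3, was under the sgNT range and the other 4 were inside it. The log2 difference of -0.32 ± 0.25 (SE) was the largest of the family in size, but its 95% confidence interval ran from -0.86 to 0.22 (edgeR, unadjusted p = 0.220), and without sgCda replicate 3 the difference was -0.15.
Fzd9 had 4.42, 5.81, 3.07, 3.24 and 5.70 CPM in sgNT replicates 1 to 5, and 5.13, 4.84, 2.77, 5.63 and 7.21 CPM in sgCda replicates 1 to 5. Its log2 difference was 0.20 ± 0.27 (SE; edgeR, unadjusted p = 0.467). In sgCda replicate 5 the level was above the sgNT range and in replicate 3 below it. The difference rested on single tumors, since it was 0.36 without sgCda replicate 3 and 0.043 without sgCda replicate 5. Fzd4 and Fzd9 had the widest spread within groups, an SD of 0.47 on the log2 scale for each. Among genes of like level 7.09% exceeded the SD of Fzd4 and 23.7% that of Fzd9.
Fzd10 was at 0 in 4 sgNT tumors and 2 sgCda tumors and at 1 or 2 counts in the rest, below the 3 counts taken as the floor in every library, and no fold is given for it.

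Of the 8 members tested beside Fzd1, whose values chose the family, 5 had a negative log2 difference and 3 a positive one, where 47.1% of all tested genes were negative. The median over these 8 was -0.033, against 0.0078 over all genes. With Benjamini-Hochberg adjustment over all genes, edgeR called 0 of these 8 members and 0.0% of all genes, with adjusted p = 0.9996 for each of the 8. At an unadjusted p under 0.05 it called 0 of these 8 members, against 2.5% of all genes. DESeq2 and limma-voom likewise called 0 genes after adjustment, with 433 and 317 genes at an unadjusted p under 0.05 against 382 with edgeR.

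**Figure D3:**
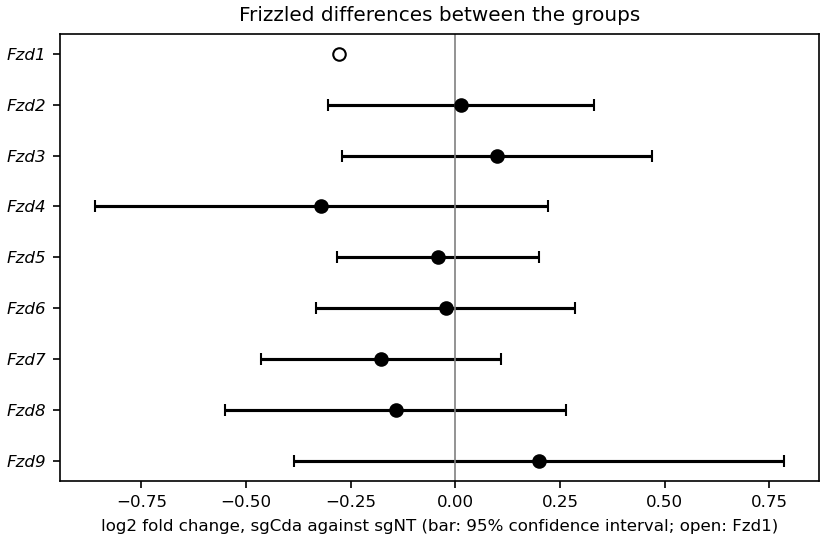
Log2 fold change of sgCda against sgNT for the 9 Frizzled genes past the filter, from edgeR, with a line at 0. Filled points have 95% confidence intervals, all 8 of which cross 0, and the open point is Fzd1 (-0.28), drawn without an interval because the family was chosen for it.

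Within groups, 6 members varied together from tumor to tumor. This set, Fzd2, Fzd4, Fzd5, Fzd6, Fzd8 and Fzd9, was picked after the values were seen and gets no test. After the group mean of log2 CPM was subtracted from each tumor, Pearson's r in their 15 pairs ran from 0.65 to 0.94 with a median of 0.81 (n = 10 tumors). The highest was between Fzd5 and Fzd8, at 0.94. The tumors share library depth and tissue makeup, and 10.4% of the 63534628 pairs of tested genes whose log2 CPM averaged 2 or more had an r as high as the lowest of these 15.

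Much of this rested on sgCda replicate 3, where all 6 were at their lowest level of the 10 tumors. Fzd1 was lowest there too, at 61.9 CPM against 62.2 CPM in the next tumor, and Fzd7 was at its second lowest level. Without sgCda replicate 3 the 15 values ran from 0.29 to 0.88 with a median of 0.60. Without sgCda replicate 4 they ran from 0.64 to 0.95 with a median of 0.81. Fzd1 and Fzd7 did not follow the 6, with r from -0.081 to 0.23 for Fzd1 and from -0.016 to 0.22 for Fzd7. Without sgCda replicate 3 these turned to -0.67 to -0.090 and -0.35 to -0.075. Fzd1 and Fzd7 had an r of 0.14 with each other, and Fzd3 had 0.15 to 0.50 with the 6. Over all 36 pairs of members, 32 were positive and the median was 0.41.

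Summed markers of cell types were also set against each member. The values named here were picked from all pairs of a member and a marker list after they were seen, and get no test. The 7 T cell markers had an r of -0.84 with Fzd9, -0.79 with Fzd2 and -0.76 with Fzd6, and the 8 skeletal muscle markers had -0.89 with Fzd9, -0.72 with Fzd2 and -0.65 with Fzd6. Over the set of 6, r ran from -0.84 to -0.47 for T cell and from -0.89 to -0.53 for skeletal muscle markers. Without sgCda replicate 3, where both sums were highest, these ranges were -0.67 to 0.15 and -0.90 to -0.33, and the T cell value of Fzd6 was -0.32. Fzd2 varied with the 10 fibroblast markers (r = 0.68), whose sum ran from 3507 to 7757 CPM in the sgNT and from 4084 to 6374 CPM in the sgCda group. Fzd7 varied with the 8 epithelial markers (r = 0.74), whose sum ran from 592 to 924 CPM in the sgNT and from 571 to 1017 CPM in the sgCda group. Krt8 and Krt18 held most of that sum.

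For Fzd1 the highest r were 0.47 with the macrophage and 0.45 with the pericyte and smooth muscle markers, and the lowest was -0.11. Without sgCda replicate 3 the first 2 were 0.68 and 0.67. All 8 skeletal muscle markers and all 7 T cell markers had positive log2 differences, with medians of 1.68 and 0.11. So did 5 of 7 adipocyte markers (median 0.58). Negative ones were found for 7 of 7 pericyte and smooth muscle markers (median -0.14) and 6 of 8 endothelial markers (median -0.24). They were also found for 7 of 10 macrophage and 7 of 10 fibroblast markers (medians -0.029 and -0.058), where 47.1% of all genes were negative. At an unadjusted edgeR p under 0.05, 0 markers of these lists were called, against 2.5% of all genes. Signs were mixed for epithelial markers (4 of 7 tested positive, 1 called) and Schwann cell and nerve markers (3 of 5, 1 called). Skeletal muscle sums ran from 1.74 to 548 CPM in the sgNT and from 1.49 to 2232 CPM in the sgCda group, and T cell sums from 243 to 398 and from 171 to 594 CPM. Both were highest in sgCda replicate 3. In sgCda replicates 1, 2, 4 and 5 the T cell sums were 273, 341, 183 and 171 CPM. The skeletal muscle sums of these tumors were 516, 321, 28.2 and 1.49 CPM. Macrophage sums ran from 3239 to 4535 CPM in the sgNT and from 3213 to 4553 CPM in the sgCda group. Pericyte and smooth muscle sums ran from 18.1 to 57.4 in the sgNT and from 19.0 to 39.7 CPM in the sgCda group, and endothelial sums from 100.5 to 148 and from 85.4 to 140 CPM. The part of these cell types in the Frizzled differences was not tested.

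**Figure D4:**
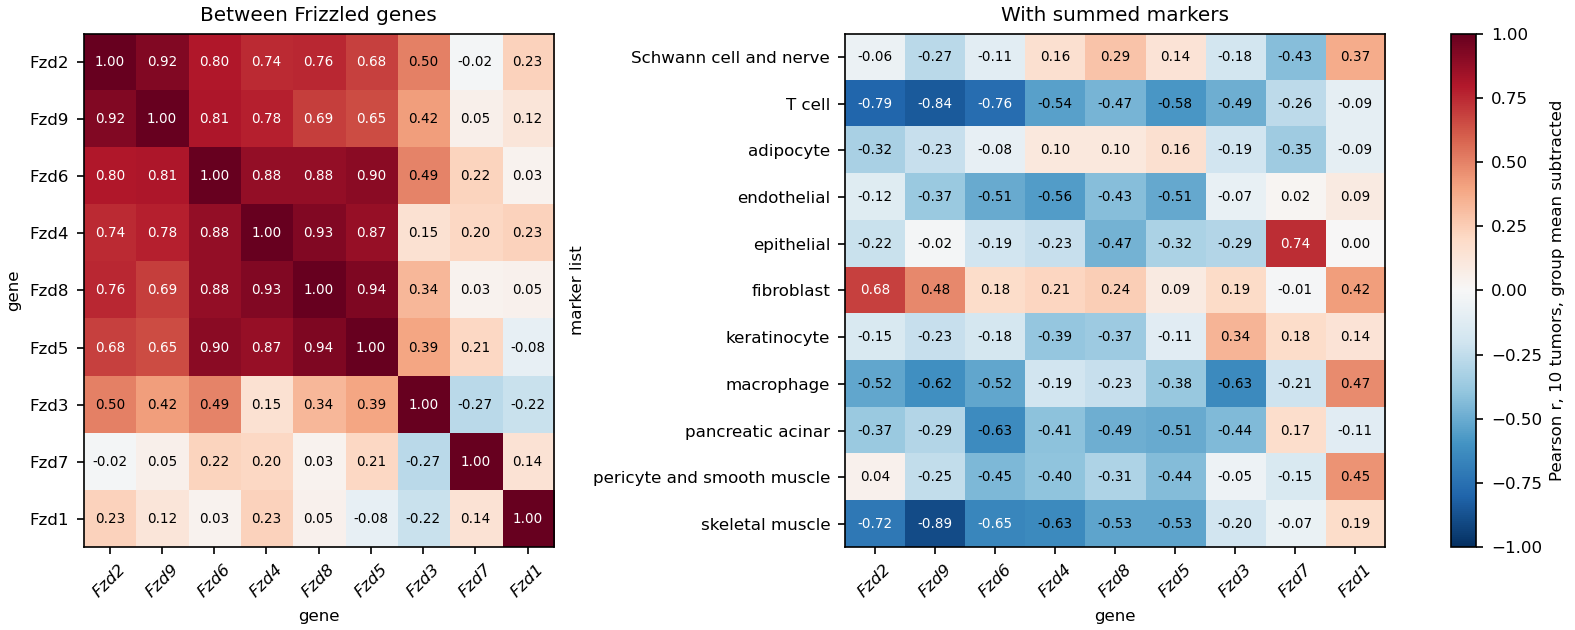
Pearson's r over 10 tumors, with the group mean of log2 CPM subtracted, between the 9 Frizzled genes past the filter (left) and between each of them and the summed markers of 11 cell types (right). Red is positive and blue negative. The 6 genes at the upper left have an r of at least 0.65 with each other. Fzd7 has an r of 0.74 with epithelial markers, and the highest marker r of Fzd1 is 0.47, with macrophage markers.

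The genes whose pattern was most like that of each member were taken by the same r over 11273 genes with a symbol whose log2 CPM averaged 2 or more, and the 3 highest are named. For Fzd1 they were Mrm1 (r = 0.97), Slc39a1 (0.96) and Tmem234 (0.96). Fzd2 was closest to Dbn1 (0.99), which encodes the actin-binding protein drebrin, Tubb2b and Slc9a3r2, and Fzd7 to Smurf1 (0.93), a ubiquitin ligase, Ssr3 and Rspry1. Fzd6 was closest to Col6a1 (0.99) and Col6a2, chains of collagen VI, and to Pja2, and Fzd3 to Adamts14 (0.90), Hoxc10 and Zfp9.
Fzd4 was closest to Tmem106b (0.99), Ncstn and Cdk14, Fzd5 to Cyp2d22 (0.97), Wdr19 and Tram2, Fzd8 to Synrg (0.99), Pkd1 and Evi5l, and Fzd9 to Rnf157 (0.98), Ppp2r5b and Lum, the gene of the matrix proteoglycan lumican. These are the highest of 11273 values for each member over 10 tumors, and they are given as a description.

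The ligands of the Frizzled receptors were led by Wnt10a, at 45.3 ± 5.47 CPM per kb, Wnt7b at 24.8 ± 3.25 and Wnt6 at 13.0 ± 2.51 (SD, n = 10 tumors). Of the 19 Wnt genes, 12 passed the filter, 10 of them with a positive log2 difference and a median of 0.23. After adjustment over all genes, 0 of the 12 were called, and at an unadjusted p under 0.05 edgeR called 2 as higher in sgCda, where 1.54% of all genes were. These were Wnt4, at 0.695 to 1.13 CPM in the sgNT and 0.788 to 3.47 CPM in the sgCda group (log2 difference 0.88 ± 0.38 SE, unadjusted p = 0.0398), and Wnt11, at 0.253 to 0.405 and 0.326 to 0.588 CPM (0.56 ± 0.24 SE, unadjusted p = 0.0419). Both are low, and their groups overlapped. Of the alternatives that kept each gene, 8 of 17 left Wnt4 and 6 of 16 left Wnt11 at an unadjusted p under 0.05, and without sgCda replicate 4 the Wnt4 difference was 0.46.
Among the genes of ligand release and removal, Wls, the carrier of Wnt proteins to the cell surface, averaged 40.6 ± 7.69 CPM per kb, Notum, which inactivates Wnt by removing its lipid, 11.4 ± 2.01, and Porcn, which attaches that lipid, 1.65 ± 0.315. All 3 had log2 differences between 0.080 and 0.23, and 0 were called at an unadjusted p under 0.05.

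Among coreceptors, Ryk averaged 32.4 ± 2.27 CPM per kb, Ptk7 12.4 ± 1.41 and Lrp6 10.3 ± 1.01. Of the 9 tested, 8 had a negative log2 difference, with a median of -0.11, and 0 were called. The values were -0.15 ± 0.077 (SE) for Lrp6, the coreceptor of the β-catenin branch (edgeR, unadjusted p = 0.0776), and -0.18 ± 0.090 for Ptk7 (edgeR, unadjusted p = 0.0756).
Of the 15 secreted modulators, most of which bind Wnt proteins or block coreceptors, 6 passed the filter and 0 were called. The list also held Ndp, the gene of norrin, a ligand of Fzd4, with 0 to 1 counts per tumor. Sfrp2 (2.21 ± 1.89 CPM per kb), Dkk3 (1.16 ± 0.707) and Sfrp1 (1.14 ± 0.833) were the highest and varied widely between tumors.

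The genes that control how much Frizzled protein stays at the cell surface were also measured. Znrf3 averaged 3.30 ± 0.276 CPM per kb, above Rnf43 at 0.739 ± 0.150, and the R-spondin receptors Lgr4 and Lgr5 averaged 2.44 ± 0.294 and 0.816 ± 0.184. Of the 7 tested, 0 were called, and 5 had a negative log2 difference, that of Znrf3 being -0.013 ± 0.084 (SE) with a 95% confidence interval from -0.20 to 0.17.

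Inside the cell, all 21 genes of signal transduction passed the filter, 13 with a negative log2 difference and a median of -0.029, and 0 were called. Ctnnb1, which encodes β-catenin, averaged 97.3 ± 7.54 CPM per kb, and the casein kinase genes Csnk1a1 and Csnk1d 37.4 ± 1.49 and 35.2 ± 1.45. The log2 difference of Ctnnb1 was -0.089 ± 0.076 (SE; edgeR, unadjusted p = 0.266).
In planar cell polarity, 1 of 9 genes, Vangl1, had an unadjusted edgeR p under 0.05, where 0.954% of all genes were lower in sgCda at that level. Vangl1, a membrane protein of the polarity complex, had 26.2 to 28.2 CPM in the sgNT and 22.9 to 26.3 CPM in the sgCda group, with a log2 difference of -0.16 ± 0.063 (SE; unadjusted p = 0.0252), and its groups overlapped. It stayed under 0.05 in 13 of 17 alternatives, and without sgCda replicate 2 the unadjusted p was 0.0630 in edgeR. Prickle2 and Daam1 averaged 7.94 ± 1.38 and 3.53 ± 0.253 CPM per kb.

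Of 15 genes known as targets of Wnt signalling, 12 passed the filter, 7 with a positive and 5 with a negative log2 difference. At an unadjusted edgeR p under 0.05, 0 were called with all tumors, where 382 of all 15299 genes were. Without sgCda replicate 3, 2 were called, Axin2 at a log2 difference of 0.54 and Ccnd1 at -0.28. In that fit 747 of all 15377 genes were called. Lef1 was called without sgCda replicate 2 and without sgNT replicate 4, at 0.57 and 0.58. Those fits called 462 of 15412 and 311 of 15466 genes. Ccnd1 (cyclin D1) averaged 110.0 ± 20.6 CPM per kb, Tcf7 26.2 ± 2.87 and Myc 23.1 ± 3.75. Axin2, the target most used as a readout of the β-catenin branch, was named after its values were seen. It had 5.12 to 8.17 CPM in the sgNT and 5.29 to 13.1 CPM in the sgCda group, with a log2 difference of 0.40 ± 0.22 (SE; edgeR, unadjusted p = 0.1001). Tcf7, Lgr5, Rnf43, Znrf3, Notum, Lef1 and Dkk1 stood in this list and in another one too.

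**Figure D5:**
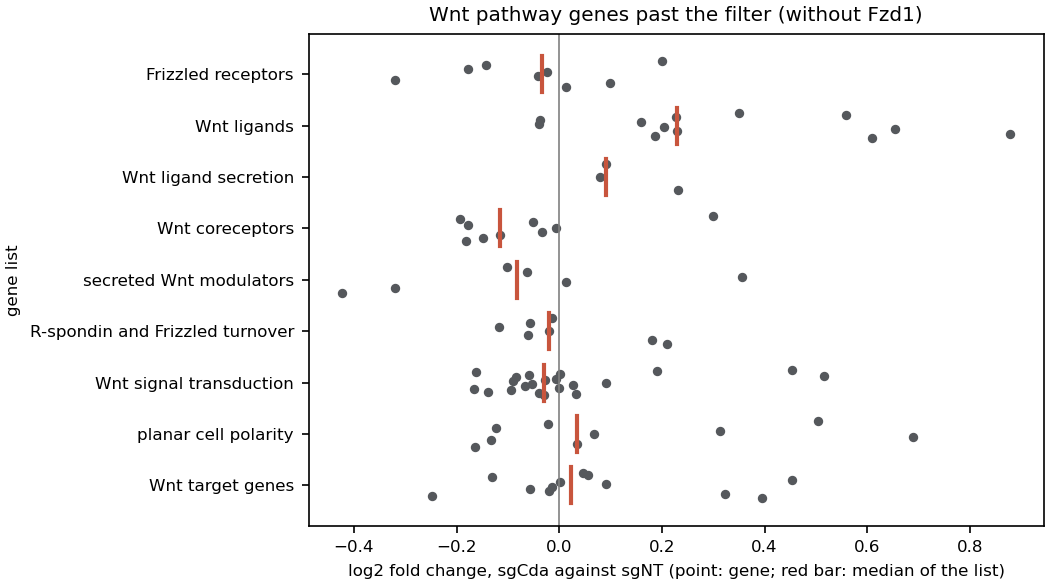
Log2 fold change of sgCda against sgNT for 8 Frizzled genes, Fzd1 being left out, and for the genes of 8 other Wnt pathway lists, with 1 point per gene past the filter and a red bar at the list's median. The list medians run from -0.11 for coreceptors to 0.23 for ligands, and no list holds a gene with an adjusted p under 0.05.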

How the data were processed

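Whole-tumor RNA of 5 sgNT and 5 sgCda Panc02 tumors was measured. The authors made libraries with a stranded mRNA kit, read the first 50 bases, aligned them with TopHat and Bowtie2 to GRCm38 (mm10), and counted reads per Ensembl gene with HTSeq (07.2 in the submitters' processing notes, beside FastQC 0.11.5). The deposited values are whole-number counts, not normalized. HTSeq by default leaves out reads with several alignments or genes. The annotation release and strand setting were not stated.

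The table held 37417 genes, with 11115 at 0 in every tumor, and 5 HTSeq summary lines, which were dropped. In these, reads outside genes made up 10.3% to 18.4% of uniquely aligned reads. Symbols were found for 32608 identifiers. Genes were filtered with filterByExpr (minimum count 10, minimum total 15), scaled with TMM factors and compared with edgeR 4.0.16 (glmQLFit, glmQLFTest; R 4.3.3) over all 10 tumors without covariates, and p-values were adjusted by the Benjamini-Hochberg method over 15299 genes. Standard errors were derived from fold changes and F statistics. The labels do not say that replicates came from separate mice, and p-values measure only the spread between these samples, which may be technical.

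CPM are relative to TMM-scaled libraries, and lengths are merged exons of GENCODE M21 (GRCm38). Log2 CPM used a prior count of 2. Correlations used log2 CPM with group means subtracted.

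The members, the gene lists and the tests were chosen with earlier results of these data known. Named genes were all Frizzled members, genes of each Wnt list with an unadjusted p under 0.05 or among the 3 highest levels per length, and the 3 genes most like each member. Alternatives were DESeq2 1.42.0, limma-voom (limma 3.58.1), other scalings and filters, a replicate block and removal of each tumor. Removal of sgCda replicates 3 and 4 from the correlations, and of Fzd1 from the family's sum and count of signs, was added after the data were seen. The Poisson intervals of Fzd1 cover counting error only, while the confidence intervals from edgeR also hold the spread between tumors.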

Additional observations from a re-analysis of the deposited data

How the results depend on the processing

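The Fzd1 difference stayed between -0.31 and -0.24 (log2) over 17 alternatives, and its groups did not overlap under any of the 4 other scalings or filters tried. Since Fzd1 was chosen for that separation, leaving out 1 tumor could hardly turn its sign. These values are a description and lend the difference no support. The order of the members' levels per length was the same under each alternative tried for it. In each of the 17 alternatives 0 genes passed after adjustment. The count at an unadjusted p under 0.05 was 382, and 830 when genes with at least 1 count in any tumor were kept (26302 genes). Leaving out 1 tumor at a time gave 280 to 747, the highest without sgCda replicate 3 and 567 without sgCda replicate 5. The count of genes whose groups do not overlap was 92, and 147 with the same looser filter, 62 of them lower in sgCda.

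At an unadjusted p under 0.05 the alternatives gave 0 to 2 Wnt ligands and target genes, 0 to 2 polarity genes, and 0 to 1 genes of ligand release, coreceptors and signal transduction. Over all genes the count at that level ran from 280 to 830. The highest count of target genes came without sgCda replicate 3, where the count over all genes was also raised. That of polarity genes came without sgCda replicate 5 and without sgNT replicate 5, with 567 and 334 genes called over all.

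Signs near 0 turned with the tumors included. Fzd2 was 0.013, and -0.0066 with the looser filter. With 1 tumor left out it ran from -0.064 to 0.11, Fzd5 from -0.084 to 0.036 and Fzd6 from -0.084 to 0.090, the highest of each without sgCda replicate 3. Fzd3, Fzd4, Fzd7, Fzd8 and Fzd9 kept their sign in all 17 alternatives.

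The replicate numbers recur in both groups, but nothing in the labels says that a number marks a shared batch, and not every pair of tumors with the same number deviated together (r = -0.028, -0.024, 0.33, -0.43 and 0.34 for numbers 1 to 5). With the number as a replicate block, 0 genes passed after adjustment and 325 at an unadjusted p under 0.05, and the block changed no call after adjustment. Depth limits Fzd10, which at 0 to 2 counts per tumor could not be compared.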
